A study of Mus musculus with 6 samples.

Results

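MHC class I molecules show peptides made inside a cell to CD8+ T cells, and the 10 genes described here build that display. They were chosen by name for their roles: the class I light chain B2m, the heavy chains H2-K1 and H2-D1, the peptide transporter Tap1 and Tap2, the loading factor Tapbp, the class I transactivator Nlrc5, and the immunoproteasome subunits Psmb8, Psmb9 and Psmb10. Of the 10, 9 had a row among the 39179 gene identifiers of the deposited expression table. Psmb9 had no row under either of the 2 identifiers that the gene-name table gives for it, so no value for it is reported.

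Gene expression was profiled by RNA-Seq in 2 B cell populations that were sorted out of the Peyer's patches of the ileum of 12-wk-old female WT C57BL/6 littermates. Germinal center (GC) B cells were sorted as Fas+GL7+ and resting cells, labelled naive, as Fas-GL7- B cells, with no transgene, deletion or treatment in either group. Cells of 5 mice were combined for each replicate, and both populations had 3 such pools. Because Fas was used for the sort, its level is no finding, and whether the GC and naive pools of one number came from the same mice was not stated in the sources used here.

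As background, GC B cells are activated cells that divide quickly and mutate their antibody genes, while naive B cells are quiescent and recirculate. In any nucleated cell, proteasomes cut proteins into peptides, and lymphocytes carry a large share of immunoproteasomes, in which Psmb8, Psmb9 and Psmb10 take the places of the constitutive catalytic subunits Psmb5, Psmb6 and Psmb7. The Tap1-Tap2 dimer pumps the peptides into the endoplasmic reticulum (ER), where tapasin, the product of Tapbp, holds the transporter next to an empty heavy chain bound to B2m until a peptide is loaded. NLRC5 acts through the RFX, NFY and CREB proteins at the X and Y boxes of class I promoters, and NF-kB and interferon regulatory factors act at nearby elements.

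Sequences upstream of the members were searched for short letter patterns taken from these elements, without regard to their spacing or order. RefSeq promoters of GRCm38.p6 covered 8 of the 10 members, without Tap2 and Nlrc5. The 250 bases before each start were searched on both strands for CCAAT (the Y box core), GCAAC (part of the X box), GAAANNGAAA (the interferon-responsive element core) and the NF-kB consensus. Matches are printed in capitals. The first stretches hold the NF-kB consensus matches of the 3 surface chain genes, at chr2:122147545-122147573 (+ strand), chr17:34000439-34000467 (- strand) and chr17:35262914-35262942 (+ strand).
B2m: catGAAACTGAAAatgGGAAAGTCCCttt
H2-K1: cccagggctGGGGATTCCCCatctccaca
H2-D1: cccagggctGGGGATTCCCCatctcctca
The H2-K1 stretch lies before the first of the 2 starts in the promoter table and inside the annotated H2-K1 locus, which reaches further upstream. In B2m the interferon-responsive element core lies 3 bases before the NF-kB match. The H2-K1 and H2-D1 stretches were identical at 28 of 29 bases, and each capital run of 11 bases holds 2 overlapping matches of 10 bases. The whole upstream windows follow for H2-D1 (chr17:35262844-35263093, + strand), a heavy chain gene that was lower in GC B cells, and for Psmb8 (chr17:34197945-34198194, + strand), the member that was higher. Between them stands the interval of 225 bases that separates the divergent starts of Psmb9 and Tap1 (chr17:34187331-34187555, + strand).
H2-D1 upstream: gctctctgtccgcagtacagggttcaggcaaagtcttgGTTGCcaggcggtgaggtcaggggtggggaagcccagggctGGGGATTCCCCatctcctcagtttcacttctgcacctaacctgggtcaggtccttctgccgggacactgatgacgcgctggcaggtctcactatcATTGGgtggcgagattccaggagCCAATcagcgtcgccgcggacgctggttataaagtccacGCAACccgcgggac
Psmb9-Tap1 interval: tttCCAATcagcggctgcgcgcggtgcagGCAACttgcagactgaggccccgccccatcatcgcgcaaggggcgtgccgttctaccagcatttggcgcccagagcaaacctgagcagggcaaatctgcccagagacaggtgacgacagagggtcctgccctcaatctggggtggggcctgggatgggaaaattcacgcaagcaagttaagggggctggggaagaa
Psmb8 upstream: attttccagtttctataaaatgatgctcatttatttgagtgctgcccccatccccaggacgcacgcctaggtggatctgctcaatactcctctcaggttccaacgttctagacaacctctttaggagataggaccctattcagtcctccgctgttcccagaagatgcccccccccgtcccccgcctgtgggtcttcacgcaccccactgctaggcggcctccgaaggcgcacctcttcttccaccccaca
The H2-D1 window holds 2 CCAAT matches, 2 GCAAC matches and the NF-kB match, with 5 capital runs in all. The Psmb9-Tap1 interval holds 1 CCAAT and 1 GCAAC match, both close to the Psmb9 start, and the Psmb8 window holds none of the 4 motifs. The window of Psmb10, which was not called, also held none, and that of Tapbp, which was lower, held only CCAAT matches. Whether matches go with expression changes was not tested.

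**Figure D1:**
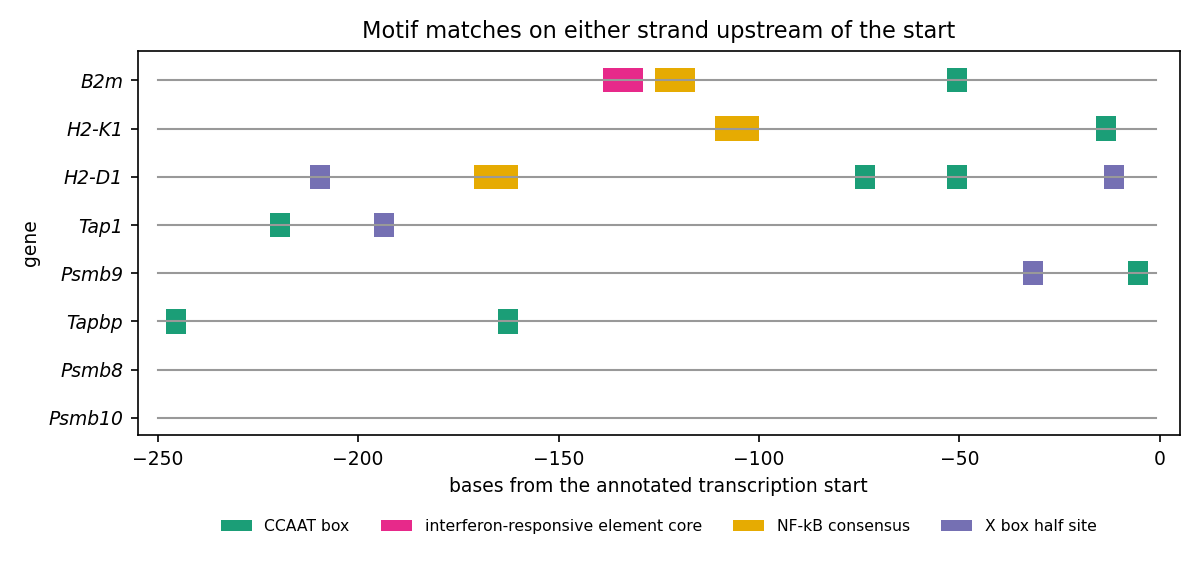
Positions of the motif matches in the 250 bases upstream of the start of 8 genes (first listed start of H2-K1), in bases from the start; coloured blocks are matches on either strand. NF-kB consensus matches are in the rows of B2m, H2-K1 and H2-D1, and the rows of Psmb8 and Psmb10 are empty.

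Among 32851 RefSeq promoter windows of the same length, 33.8% held a CCAAT match, against 6 of the 8 members. GCAAC was found in 29.9% of the windows and in 3 of the 8 (H2-D1, Tap1 and Psmb9). The interferon-responsive element core was found in 2.98% of the windows and in 1 of the 8 (B2m), and the NF-kB consensus in 7.25% and in 3 of the 8. The Psmb9 and Tap1 windows share the same 225 bases, so they do not count as separate promoters. A match of this kind is a description of the letters and not of a site in use, and no binding was measured. Only the stated patterns were searched, so the lack of a match does not show that an element is absent.

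The expression table held FPKM values, fragments scaled to transcript length and library size, which were rescaled here to TPM so that every pool sums to the same total. Steps between low values put the depth at about 9700000 to 16200000 reads per pool. The sort markers followed the labels: 4 GC markers (Fas, Bcl6, Mybl1 and S1pr2) summed to 848.4 to 894.1 TPM in GC pools and to 51.36 to 56.9 TPM in naive pools, and 3 resting markers (Ccr7, Klf2 and Fcer2a) to 101.3 to 112.4 TPM and 1026 to 1132 TPM. The 4 B cell markers Ms4a1, Cd79a, Cd79b and Pax5 were present in every pool and summed to 3317 to 3362 TPM in GC and 4933 to 5008 TPM in naive pools, with 3 of the 4 lower and 1 higher in GC B cells. Of the 3 plasma cell markers, 2 were higher and 1 lower in GC B cells, and their sum was 662.7 to 698.2 TPM against 26.25 to 44.86 TPM, nearly all of it the J chain gene. T cell markers summed to at most 3.512 TPM in any pool, and myeloid markers to 13.72 to 15.82 TPM in GC and 8.301 to 13.43 TPM in naive pools, with S100a8 at 0 throughout. The sum over 5 stromal and endothelial markers was 22.62 to 24.69 TPM against 122.1 to 132.5 TPM, nearly all of it Pecam1. The 9 epithelial markers summed to 53.82, 133.1 and 56.85 TPM in GC pools 1 to 3 and to 178.6, 148.1 and 144.1 TPM in the naive pools, so that GC pool 2 stood closer to the naive pools. Of 8 epithelial markers tested, 5 were lower and 1 was higher in GC B cells. The part of these other cell types in the results below was not tested. Values without GC pool 2 do not test it, since the epithelial sums of GC pools 1 and 3 lay further from the naive pools.

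To ask how class I presentation genes differ between GC and naive B cells, log2(TPM + 1) was compared with limma over 12785 genes, with Benjamini-Hochberg adjustment over all of them, and a gene was called at an adjusted p under 0.05. All 9 measured members were tested. Of these, 6 were lower in GC B cells (B2m, H2-K1, H2-D1, Tap1, Tapbp and Nlrc5), 1 was higher (Psmb8), and Tap2 and Psmb10 were not called. The 2 populations differed at most genes: 65.6% of all tested genes were called, 30.1% lower and 35.5% higher in GC B cells. The share of members called, in both directions together, was thus near that of all genes, and the description below rests on the size of each change. Pools of the 2 populations did not overlap for 7 of 9 members, beside 70.7% of all tested genes. The median log2 change over the 9 members was -1.22, against 0.03 over all tested genes. Without GC pool 2, again 6 members were lower and 1 higher. In bulk samples like these, fewer cells of a type and less RNA per cell cannot be told apart, and TPM gives each gene's share of the RNA rather than an amount per cell.

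**Figure D2:**
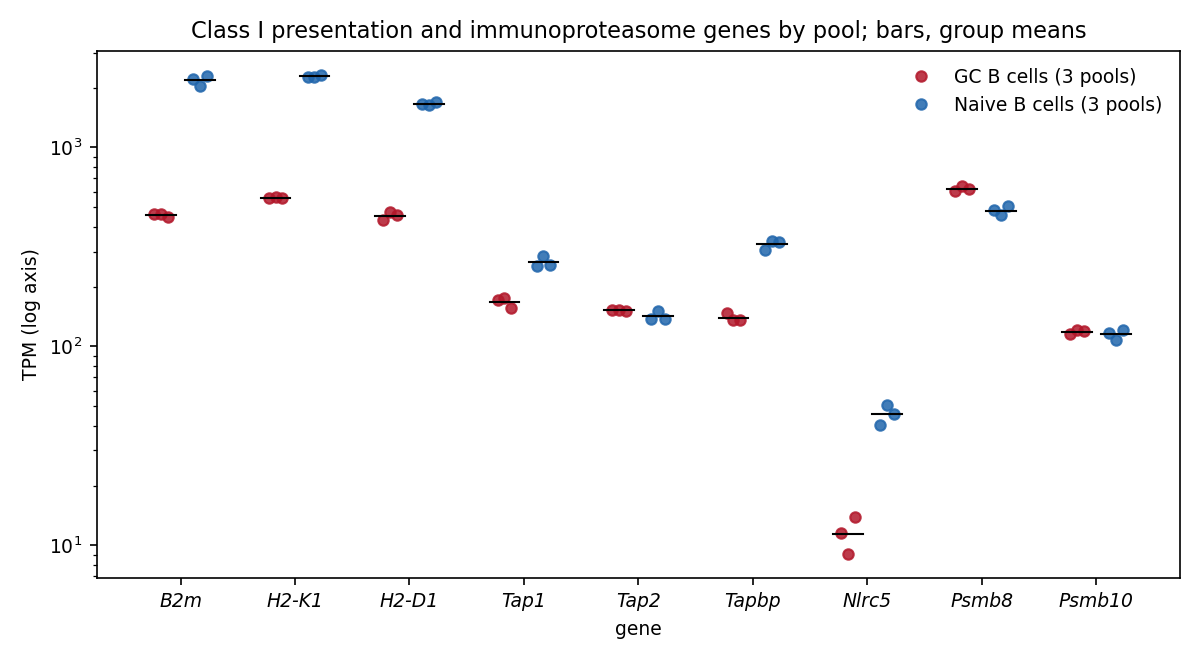
TPM (log axis) of the 9 measured genes in the 3 GC (red) and 3 naive (blue) pools; points are pools and bars are group means. B2m, H2-K1 and H2-D1 lie between 433.9 and 561.1 TPM in GC and at 1633 TPM or more in naive pools, while Tap2 and Psmb10 overlap.

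The 3 surface chain genes were all several-fold lower in GC than in naive B cells, and the falls of B2m and H2-K1 were the largest on the log2(TPM + 1) scale among the 9 measured members. B2m (ENSMUSG00000060802, chr2:122147687-122153082), the invariant light chain of every class I molecule, measured 460.7, 462.5 and 445.0 TPM in the 3 GC pools but 2207, 2046 and 2297 TPM in the 3 naive pools. The naive pools were thus all far above the GC pools, with no overlap. Its mean was 456.1 ± 9.64 TPM (SD, n = 3) in GC against 2183 ± 127 TPM in naive B cells, 4.79-fold higher in naive, and the log2 change was -2.26 (SE 0.051, limma adjusted p = 3.26e-07). Only 2.99% of tested genes had a log2 change as low as that of B2m. In rank of level among all genes, B2m stood at places 67 to 74 in naive pools and 287 to 309 in GC pools. The gene overlaps Patl2 in the annotation, which was listed at 0 in all 6 pools.

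H2-K1 (ENSMUSG00000061232, chr17:33996012-34000619), a classical heavy chain that presents peptides to CD8+ T cells, was at 555.1, 561.1 and 555.7 TPM in GC and at 2267, 2266 and 2322 TPM in naive pools. The 3 pools of each population lay very close together, with a coefficient of variation of 0.593% in GC and 1.4% in naive B cells. The naive mean was 4.1-fold higher, and the log2 change was -2.03 (SE 0.0314, limma adjusted p = 1.21e-07). H2-D1 (ENSMUSG00000073411, chr17:35263094-35267497), the second classical heavy chain of this strain, was at 433.9, 475.7 and 455.8 TPM in GC and at 1655, 1633 and 1694 TPM in naive pools. Again no GC pool came near a naive pool. The naive mean was 3.65-fold higher, with a log2 change of -1.87 (SE 0.0444, limma adjusted p = 3.74e-07). The share of tested genes with a log2 change as low was 3.79% for H2-K1 and 4.44% for H2-D1.

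H2-K1 and H2-D1 are near-identical in much of their sequence, and RSEM divides reads between such genes by a model, so each value is less certain than the sum. The sum of both was 989, 1037 and 1012 TPM in GC and 3922, 3899 and 4016 TPM in naive pools, a log2 difference of -1.96 (SE 0.0236). The split between them moved little: the H2-K1 to H2-D1 ratio was 1.279, 1.179 and 1.219 in GC and 1.369, 1.388 and 1.371 in naive pools, which did not overlap. Its log2 difference was -0.17 (SE 0.0346, exact permutation p = 0.1, two-sided, n = 3 per group). With 3 pools against 3, 0.1 is the smallest p that this test can give, and all 8 within-pool sums and ratios compared here reached it, with a Benjamini-Hochberg adjusted value of 0.1 for each.

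The balance of heavy to light chain RNA was higher in the GC pools. The ratio of summed H2-K1 and H2-D1 to B2m was 2.147, 2.242 and 2.273 in GC pools and 1.777, 1.906 and 1.749 in naive pools. Every GC pool was above every naive pool, by a log2 difference of 0.29 (SE 0.0455, exact permutation p = 0.1), since B2m had the larger fall. After correction of each pool for G+C content and transcript length this difference was 0.49. Together B2m, H2-K1 and H2-D1 made up 0.145%, 0.15% and 0.146% of all TPM in GC pools and 0.613%, 0.595% and 0.631% in naive pools.

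B2m also pairs with the less variable class I heavy chains and their relatives, and these moved the same way. Of 16 such genes listed, 13 could be tested: 12 were lower in GC B cells, none was higher, and H2-T3 was not called. Among all tested genes, 30.1% were lower. Calls of near-identical genes such as H2-Q6 and H2-Q7 are not independent, since reads are divided between them. Cd1d1, Fcgrt and H2-T3 met the expression minimum of 1 TPM in 3 pools only with the help of the naive pools, so that Cd1d1 and Fcgrt had to differ, and 10 genes were lower without them. H2-Q1 had no row, H2-Q2 was left out because 2 identifiers carried its name, and Hfe was below the expression minimum. The median log2 change over the 13 was -1.90, with Cd1d1, Fcgrt and H2-T3 counted. Without them the middle changes were -1.90 (H2-T10) and -1.09 (H2-T22). The summed level of the 14 genes with a value was 584.1 to 617.9 TPM in GC and 2129 to 2261 TPM in naive pools. Without GC pool 2 the count was 11 lower, as Mr1, which presents vitamin B metabolites to MAIT cells, went from an adjusted p of 0.0166 to 0.05. Mr1 also missed the threshold without naive pool 1 (limma adjusted p = 0.0526) or naive pool 2 (limma adjusted p = 0.0577).

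The largest fall of this group was in Cd1d1, which presents lipids to NKT cells. It was at 0.8819, 1.052 and 0.5714 TPM in GC and at 60.58, 63.25 and 50.75 TPM in naive pools, so that it was near 1 TPM or below in every GC pool. Its log2 change was -5.01 (SE 0.14) on the log2(TPM + 1) scale, which understates a change that ends near 0. Fcgrt, the heavy chain of the neonatal Fc receptor that binds IgG and albumin rather than peptides, was next and is named after its values were seen. It was at 0.3996, 0.526 and 0.446 TPM in GC and at 28.51, 27.93 and 26.68 TPM in naive pools (log2 change -4.30, SE 0.0956). For both genes these are descriptions, since the filter admitted them through the naive pools alone.

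H2-T23, which encodes Qa-1, a ligand of NKG2 receptors on NK and T cells, was the most abundant of the group over all 6 pools, although H2-Q6 and H2-Q7 were above it in the naive pools. Its levels were 194.1, 210.1 and 200.3 TPM in GC and 419.1, 438.4 and 421.6 TPM in naive pools, with no overlap and a smaller log2 change of -1.08 (SE 0.0445, limma adjusted p = 3.24e-06) than the classical heavy chains. H2-Q6 and H2-Q7, near-identical genes of the Qa-2 antigen named after their values were seen, were taken as a sum because reads are divided between them. The sum was 100.7, 115.6 and 108.1 TPM in GC and 988.4, 1042 and 1052 TPM in naive pools, and its log2 difference of -3.25 (SE 0.0641, exact permutation p = 0.1) was larger in size than the -1.96 of summed H2-K1 and H2-D1. The difference between these 2 sums was not tested.

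Nlrc5 (ENSMUSG00000074151, chr8:94434335-94527272), the transactivator of class I genes, was the member with the lowest level. Its values were 11.49, 9.066 and 13.83 TPM in GC and 40.38, 51.01 and 45.58 TPM in naive pools. The highest GC pool was far below the lowest naive pool, although Nlrc5 had the widest spread of the members, with a coefficient of variation of 20.8% in GC and 11.6% in naive B cells. The GC mean was 11.46 ± 2.38 TPM and the naive mean 45.66 ± 5.32 TPM (SD, n = 3), 3.98-fold higher in naive, and the log2 change was -1.92 (SE 0.16, limma adjusted p = 7.81e-05). The Nlrc5 locus also overlaps 3 other annotated genes (9330175E14Rik, Gm51584 and Mir7072), none of them with a measured row, and the kit does not mark strand. Only whole gene spans were compared, so whether reads from those loci were counted for Nlrc5 was not tested.

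The genes most like Nlrc5 in pattern were found by the root mean square distance of the 6 centred log2(TPM + 1) values. Distances were computed for 12870 genes, and the members, the other listed genes and genes without a symbol were then left out. Izumo4 was the nearest, at a distance of 0.0572, with 7.427, 5.62 and 8.459 TPM in GC and 25.38, 30.58 and 27.14 TPM in naive pools. Tns3, a focal adhesion protein gene, followed at 0.105 and P2rx4, an ATP-gated channel gene, at 0.107. The order of their pools was fixed by this choice, and Tns3 was below 1 TPM in every GC pool. No member could be among the 3, since the members were left out of the search.

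Transcription factors that act on class I promoters changed in both directions. Of 12 reported here, 5 were lower in GC B cells, 2 were higher and 5 were not called, with a median log2 change of -0.09. For all tested genes the shares were 30.1% lower and 35.5% higher. The largest fall was in Irf1, an interferon regulatory factor that binds the interferon-responsive element, at 41.7, 36.07 and 35.75 TPM in GC and 113.2, 104.9 and 106.4 TPM in naive pools (log2 change -1.49, SE 0.0746, limma adjusted p = 7.57e-06). No GC pool reached the lowest naive pool. The largest rise was in Nfyb, a subunit of the CCAAT-binding factor NFY, at 37.55, 43.39 and 43.51 TPM in GC and 32.43, 29.22 and 34.81 TPM in naive pools (log2 change 0.36, SE 0.0924, limma adjusted p = 0.0135). The call for Nfyb did not hold under quantile normalization (0.27, limma adjusted p = 0.0585) or after correction for G+C content and length (0.24, limma adjusted p = 0.0581).

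Irf8, a lineage factor of B and myeloid cells, was the most abundant of the 12. It was at 410.5, 416.5 and 421.8 TPM in GC and 464, 454.5 and 426 TPM in naive pools, and its log2 change of -0.11 (SE 0.0437, 95% interval -0.21 to 0.00) was not called. Irf8 was called lower in GC under 4 other scalings, at -0.14 to -0.24, and without naive pool 3 (-0.14, limma adjusted p = 0.0149). The other factors that were lower were Nfkb1 and Rela, which encode the p50 precursor and p65 of NF-kB, Irf2, an interferon regulatory factor, and Nfya. Their log2 changes were -0.94 for Nfkb1, -0.56 for Rela, -0.40 for Irf2 and -0.33 for Nfya. The RFX subunit gene Rfxank was the other one that was higher (log2 change 0.32, limma adjusted p = 0.0161). It missed the threshold without GC pool 2 (limma adjusted p = 0.0501) or GC pool 3 (limma adjusted p = 0.0557). These genes beyond the first 3 were named after their values were seen.

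Peptide transport and loading included genes with unlike changes: Tap1 and Tapbp were lower in GC B cells and Tap2 was not called. Tap1 (ENSMUSG00000037321, chr17:34187556-34197225), one chain of the transporter, was at 171.5, 174.8 and 156.1 TPM in GC and at 252.6, 283.4 and 257.3 TPM in naive pools. GC and naive pools did not overlap, and the naive mean was 1.58-fold higher. The log2 change was -0.66 (SE 0.0661, limma adjusted p = 0.000187), a fall smaller than that of B2m or of either heavy chain. By comparison, 19.5% of tested genes had a log2 change as low.

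Tap2 (ENSMUSG00000024339, chr17:34204479-34216321), the partner chain, was at 152.3, 153.2 and 150.8 TPM in GC and at 137.2, 151.5 and 137.4 TPM in naive pools. Naive pool 2 lay inside the narrow GC range and the other 2 naive pools lay below it. The log2 change was 0.10 (SE 0.0515, limma adjusted p = 0.135), with a 95% interval of -0.03 to 0.22 that leaves out a fall like that of Tap1. The direction was -0.02 under quantile normalization. Tap2 was called higher in GC without naive pool 2 (0.15, limma adjusted p = 0.0235) and after correction for G+C content and length (0.22, limma adjusted p = 0.00306).

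The Tap1 to Tap2 ratio in each pool does not depend on the scaling between pools. It was 1.127, 1.141 and 1.035 in GC and 1.841, 1.871 and 1.872 in naive pools. The 2 chains were thus at nearly equal TPM in GC B cells, whereas Tap1 exceeded Tap2 in every naive pool by more than in any GC pool. The log2 difference was -0.76 (SE 0.0447, exact permutation p = 0.1).

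Tapbp (ENSMUSG00000024308, chr17:33919478-33929290), which encodes tapasin, was at 148.1, 135.6 and 135.7 TPM in GC and at 304.4, 340.7 and 336.8 TPM in naive pools. The populations were well apart, with a naive mean 2.34-fold higher. The log2 change of -1.22 (SE 0.0625, limma adjusted p = 8.41e-06) lay between that of Tap1 and those of the surface chains, and 9.14% of tested genes had one as low. The gene Gm19412 overlaps Tapbp and had no measured row.

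Other genes of ER loading and peptide trimming showed no common direction. Of 11, 3 were higher in GC B cells, 4 were lower and 4 were not called, with a median of 0.11. The shares over all tested genes were 35.5% higher and 30.1% lower. The largest fall past the threshold was in Tapbpl, the tapasin-related gene that edits peptides, at 20.26, 18.01 and 16.92 TPM in GC and 25.37, 25.65 and 28.88 TPM in naive pools (log2 change -0.51, SE 0.0933, limma adjusted p = 0.00298). It thus changed in the same direction as Tapbp and by less. The largest rise was in Lnpep, an endosomal aminopeptidase used in cross-presentation, at 54.55, 52.92 and 48.6 TPM in GC and 28.69, 29.14 and 21.04 TPM in naive pools (log2 change 0.97, SE 0.132, limma adjusted p = 0.000782). Calr, the chaperone calreticulin and the most abundant gene of the list, was at 394.4, 382.9 and 381.8 TPM in GC and 541.6, 507 and 570.2 TPM in naive pools (log2 change -0.48, SE 0.0511, limma adjusted p = 0.000246).

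Neither measured immunoproteasome gene was called lower in GC B cells. Psmb8 (ENSMUSG00000024338, chr17:34198195-34201454), the chymotrypsin-like subunit LMP7, was at 601.9, 644.0 and 615.6 TPM in GC and at 483.2, 457.3 and 505.8 TPM in naive pools. Every GC pool was above every naive pool, and the GC mean was 1.29-fold higher. The log2 change was 0.36 (SE 0.0506, limma adjusted p = 0.000855, 95% interval 0.24 to 0.49). A higher log2 change was found in 33.9% of tested genes.

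Psmb10 (ENSMUSG00000031897, chr8:105935728-105938392), the trypsin-like subunit MECL-1, was at 115.9, 120.4 and 119.1 TPM in GC and at 117.5, 107.5 and 120.8 TPM in naive pools. The 2 populations overlapped, with all GC values inside the naive range. The log2 change was 0.04 (SE 0.0559, limma adjusted p = 0.551, 95% interval -0.09 to 0.18), and it was -0.01 for FPKM as deposited, -0.10 under quantile normalization and -0.01 without naive pool 2. The interval leaves out a change as large as that of Psmb8 or of Tap1. Psmb9 (chr17:34182030-34187330), the subunit gene that shares its promoter region with Tap1, is the member without a value.

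The constitutive subunits that these replace all rose in GC B cells, beside 35.5% of all tested genes. Psmb5, the counterpart of Psmb8, was at 177.3, 194.7 and 179.3 TPM in GC and 108.5, 102.9 and 111.2 TPM in naive pools (log2 change 0.77, SE 0.0555, limma adjusted p = 4.04e-05). Psmb6, the counterpart of Psmb9, was at 223.5, 248.7 and 220.6 TPM against 166.7, 158.2 and 168.8 TPM (log2 change 0.48, SE 0.0595, limma adjusted p = 0.000478). Psmb7, the counterpart of Psmb10, was at 199.7, 218.3 and 218.3 TPM against 97.12, 105.5 and 120.7 TPM (log2 change 0.97, SE 0.0869, limma adjusted p = 0.000107). For none of the 3 did GC and naive pools overlap.

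Ratios within each pool put the 2 kinds of subunit side by side. The Psmb8 to Psmb5 ratio was 3.396, 3.308 and 3.433 in GC and 4.455, 4.445 and 4.549 in naive pools, a log2 difference of -0.41 (SE 0.0191, exact permutation p = 0.1). The Psmb10 to Psmb7 ratio was 0.5806, 0.5514 and 0.5453 in GC and 1.21, 1.019 and 1.001 in naive pools, a log2 difference of -0.94 (SE 0.0916, exact permutation p = 0.1). Psmb8 RNA thus exceeded that of Psmb5 in all 6 pools, while Psmb10 RNA was below that of Psmb7 in every GC pool and above it in every naive pool, by little in pools 2 and 3. For the summed pairs, Psmb8 and Psmb10 over Psmb5 and Psmb7, the ratio was 1.904, 1.851 and 1.848 in GC and 2.922, 2.711 and 2.703 in naive pools (log2 difference -0.57, SE 0.0395, exact permutation p = 0.1). Where the ratios were lower in GC B cells, the constitutive subunits were higher, Psmb8 was higher by less and Psmb10 was not called.

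**Figure D3:**
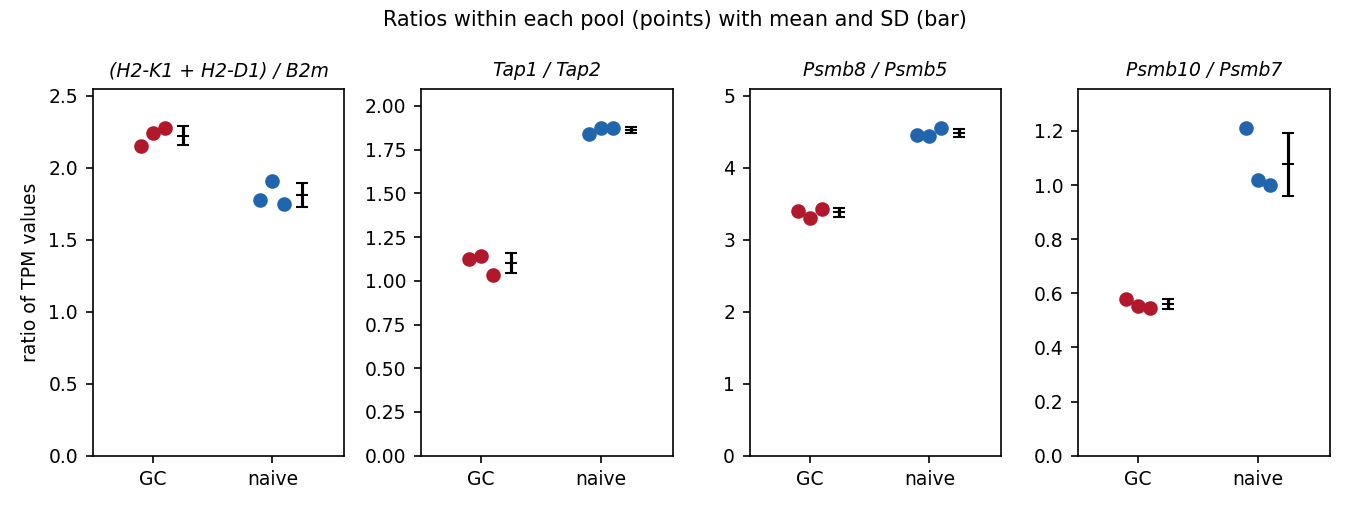
Ratios of TPM within each pool for 4 gene pairs in GC (red) and naive (blue) pools; points are pools and the black bars show the mean and SD of 3 pools, with axes from 0. GC and naive pools do not overlap in any panel: the heavy chain to B2m ratio is higher in GC and the other 3 are lower.

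The remaining subunits of the 20S core rose together with the constitutive catalytic ones. All 11 were called higher in GC B cells, beside 35.5% of all tested genes. Their log2 changes ran from 0.26 to 0.87, with a median of 0.59. The largest rise was in Psmb2, a noncatalytic beta subunit, at 183.6, 172.4 and 162.3 TPM in GC and 93.54, 93.33 and 95.83 TPM in naive pools (log2 change 0.87, SE 0.0552, limma adjusted p = 2.27e-05). The most abundant over all 6 pools was Psmb4, another beta subunit, at 304.3, 310.2 and 303.8 TPM in GC and 197.1, 212.2 and 209.3 TPM in naive pools (log2 change 0.57, SE 0.0424, limma adjusted p = 4.7e-05). Under quantile normalization 10 of the 11 were called, as Psma3 had a log2 change of 0.13 (limma adjusted p = 0.122). The log2 change of Psmb8, at 0.36, was below the median of the core.

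Of 6 proteasome activators and assembly factors, 3 were higher in GC B cells and 3 were not called, with a median log2 change of 0.29. Of all tested genes, 35.5% were higher. Pomp, the chaperone that assembles the core and favours immunoproteasomes, was at 300.8, 290.1 and 269.8 TPM in GC and 138.4, 121.5 and 139 TPM in naive pools (log2 change 1.11, SE 0.0708, limma adjusted p = 2.32e-05). Psme1 and Psme2, the interferon-inducible PA28 alpha and beta chains, were not called, at log2 changes of -0.08 (95% interval -0.24 to 0.08) and 0.17 (95% interval -0.04 to 0.38). After correction for G+C content and length Psme1 was called lower (-0.16, limma adjusted p = 0.0421). Psme2 was the most abundant gene of the group, at 1259, 1036 and 1006 TPM in GC and 988.7, 962.8 and 973.6 TPM in naive pools, with GC pool 1 above the rest. Psme3, the nuclear PA28 gamma, was higher in GC (0.40, limma adjusted p = 0.000182), as was the inhibitor Psmf1 (0.43, limma adjusted p = 0.00293). Psme4, which encodes PA200, had a log2 change of 0.03 (95% interval -0.18 to 0.24).

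**Figure D4:**
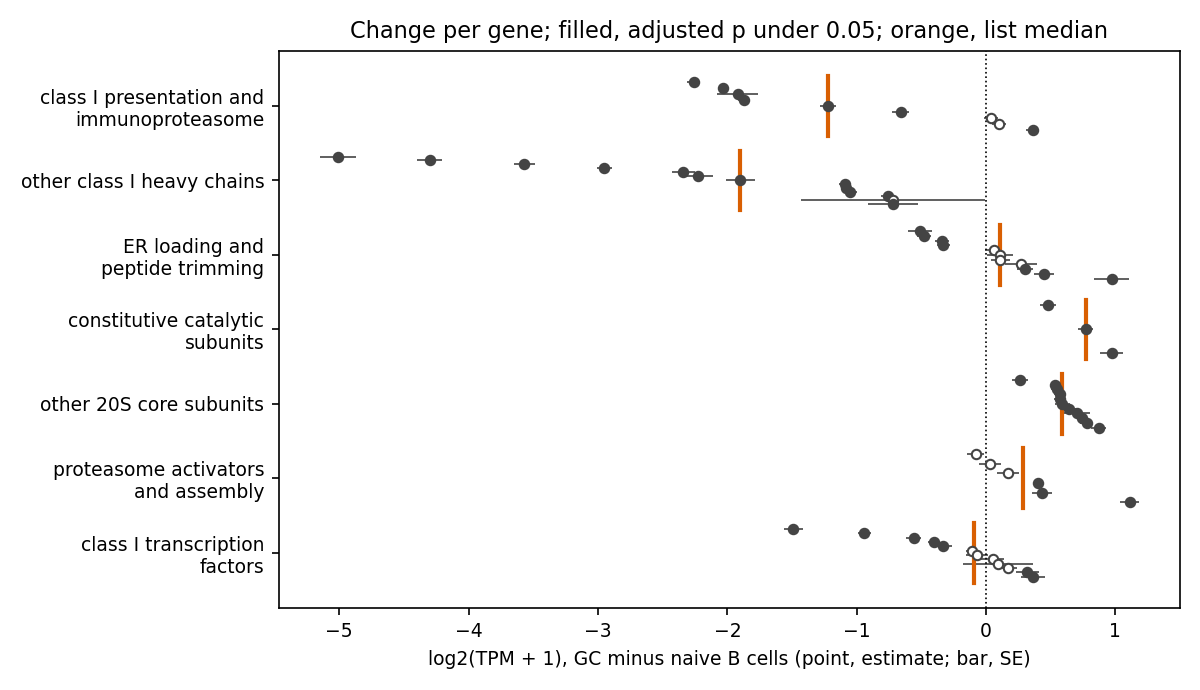
Change in log2(TPM + 1), GC minus naive, for each tested gene by group, with bars for the SE; filled points passed an adjusted p of 0.05, open points did not, and orange lines are group medians. Heavy chains lie at or below -0.72, the 20S core subunits lie between 0.26 and 0.87, and the loading and transcription factor genes lie on both sides of 0.

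The order of the members by TPM, which accounts for transcript length, differed between the populations. In naive B cells H2-K1 was first and B2m second, with overlapping ranges (2266 to 2322 TPM and 2046 to 2297 TPM), followed by H2-D1, Psmb8, Tapbp, Tap1, Tap2, Psmb10 and Nlrc5, each apart from the next. In GC B cells Psmb8 was first (601.9 to 644 TPM), ahead of H2-K1, B2m and H2-D1, and the ranges of B2m and H2-D1 overlapped. Tap1, Tap2, Tapbp, Psmb10 and Nlrc5 followed without overlap of neighbours. Psmb8 thus moved from the fourth place to the first, while Tapbp moved from ahead of both transporter chains to behind them.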

How the data were processed

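Adapters were trimmed by the authors (cutadapt v1.9), RSEM v1.2.25 was run against NCBIm38 v75 transcripts, and the deposited values are FPKM per gene and pool. The submitters' processing notes also list edgeR, with a role not given in the sources used here. FPKM were divided by each pool's total (717537 to 774597) and multiplied by 1000000 to give TPM. Genes reaching 1 TPM in 3 or more pools were compared on log2(TPM + 1), a scale that understates changes of low genes, with limma 3.58.1 (trend, two-sided, R 4.3.3). Within-pool ratios were compared by exact permutation tests over pools. The limma fit was also run on simulated data, in which far fewer genes changed than were called here. That run does not test a setting where most genes differ. Depth was estimated from steps between low FPKM values, of which 66.0% to 73.4% per pool lay within 0.15 of a whole read. Symbols were found for 33398 of 39179 identifiers. Because Psmb9 had no row, the planned ratio of 3 immunoproteasome to 3 constitutive subunits was computed from 2 pairs.

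The members, gene lists and tests were chosen with earlier results of these data known. All members were named. In lists of more than 6 genes, the largest rise, the largest fall past the threshold and the most abundant gene were named, and any other gene was named after its values were seen, including Mr1, Psma3 and Pdia3. The 3 genes outside the lists that were nearest to Nlrc5 were also named. Alternatives covered pseudocounts, filters, scalings, G+C content and length, variance models, replicate numbers as a block and leaving out each pool. Some listed genes are not reported here, and the counts and sums of their lists leave them out.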

Additional observations from a re-analysis of the deposited data

How the results depend on the processing

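Over 17 results, 255 of 267 alternative values kept the direction and side of the threshold, or stayed within the replicate spread or 1.5 times the count. The number of genes called was 7180 to 8639, and 7 or 8 members were called throughout. All 9 measured members were tested, except after G+C content and length correction. There 8 were tested, with 2 called higher and 5 lower in GC. Tap2 was at -0.02 under quantile normalization, and was called higher in GC at 0.22 after G+C content and length correction, at 0.22 with that correction and the block, and at 0.15 without naive pool 2. Psmb10 was at -0.01 for FPKM as deposited and -0.10 under quantile normalization, and from -0.01 (without naive pool 2) to 0.08 with 1 pool left out. After correction for G+C content and length, the log2 difference was -1.92 for summed H2-K1 and H2-D1, 0.49 for the heavy chain to B2m ratio, -0.43 for the summed immunoproteasome to constitutive ratio, -0.33 for Psmb8 to Psmb5 and -0.77 for Psmb10 to Psmb7. That correction covered 86.3% of tested genes and gave no value for Nlrc5. The cause of these shifts was not tested. Of all genes called, 54.1% were higher in GC, against 47.8% under quantile normalization.

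Same-numbered GC and naive pools correlated at 0.083, 0.022 and 0.046 in their deviations from the group means, each above its value with other numbers but under 0.1, so the fit without the block was kept. Whether same-numbered pools share mice was not tested. With the replicate number as a block, 7960 genes were called in place of 8392, and 7795 calls were shared. That block alone changed no call of the members.

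Limits: 3 pools per group, with p-values that measure the spread between pools, no counts, and reads of near-identical heavy chain genes divided by a model. For Mr1, Rfxank, Nfyb and Psma3 the calls depend on the settings or pools named above, and a rise of Pdia3 in GC (0.30) was not called after G+C content and length correction (0.19, limma adjusted p = 0.0574). Nfyc was called higher without naive pool 1 (0.24, limma adjusted p = 0.0134), Npepps higher without naive pool 2 (0.38, limma adjusted p = 0.0174) and Rfx5 lower under quantile normalization (-0.21, limma adjusted p = 0.0438).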
